A study of Danio rerio with 2 samples.

Results

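The cytosolic ribosome is the particle that translates messenger RNA, and its proteins are encoded by a large set of genes expressed in every cell. The members described here are the 79 genes, of 34326 in the table and 25757 with a p, whose names mark them as large subunit (rpl and rplp) or small subunit (rps) ribosomal proteins and whose expression was above 0. Kinases of ribosomal protein S6, named rps6k, were left out. The choice rests on names and used no fold or p, but it was made with earlier results of these data known. Of the members, 45 are named for the large and 34 for the small subunit. RNA came from cells of 5-day-old zebrafish larvae, TL strain, that had been sorted by flow cytometry for GFP driven by Cldnk, and which the submitters call oligodendrocytes, glia that wrap axons of brain and spinal cord in myelin. Larvae were of genotype Wild type or rraga mutant, which are the 2 groups. All cells of both groups carried the Cldnk:GFP reporter, and the mutant allele is not named in the labels. Each genotype has 1 record that merges 2 biological replicates per the labels, and the values used here are the authors' own comparison of the genotypes. No value per replicate is given, so no spread between replicates can be shown.

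rraga encodes RagA, a small GTPase that, on the lysosome surface, recruits the kinase complex mTORC1 when amino acids are plentiful. In vertebrates, messenger RNAs of ribosomal proteins begin with a terminal oligopyrimidine (TOP) tract, a run of C and U at their start, and their translation and stability depend on mTORC1 and the binding protein LARP1. Ribosomal RNA synthesis and ribosome assembly are under mTORC1 control as well. The comparison therefore bears on whether the transcripts of these genes differ in sorted cells when rraga is mutated. It measures RNA and says nothing of translation.

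For each gene the table holds a log2 fold, mutant relative to wild type, and a level, which is the higher of the genotype means on a normalized scale that the table does not name. Because it is not known whether this scale corrects for transcript length, no single gene is called more abundant than another, and shares of summed levels are shares on this scale, not of RNA molecules. An FDR-adjusted p from the authors under 0.05 was taken as a change. To give each fold an error, the absolute fold was divided by the normal deviate of its p, which assumes a normal test, and the result is called the implied error.

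Ribosomal protein genes had slightly lower values in the mutant and lay close together. Of the 79 members, 71 had a lower and 8 a higher value, with a median log2 fold of -0.14, against 49.0% lower and a median of 0.02 over all genes with a p. Other genes in the level range of the members leaned the other way. Among the 1898 between the lowest and highest level of the members, rps8b aside, 32.7% were lower and the median was 0.17. The match is by range only, since their median level was 87.0, against 209 for the members without rps8b. At higher levels the lean was weaker, with 38.1% of all genes lower and a median of 0.11 at 100 or more. At 300 or more these were 46.1% and 0.06. None of the members passed the authors' adjusted threshold in either direction, where 0.221% of all genes did, 0.0893% on the lower and 0.132% on the higher side. At an unadjusted p from the authors under 0.05 there was 1 member, rps8b, where 9.66% of all genes lay under that p and 5.24% did so on the lower and 4.43% on the higher side. The count of 0 comes from the authors' test, whose name is not given in the sources used here, and no other test could be run. In bulk RNA such as this, fewer cells of a type and less RNA per cell cannot be told apart.

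**Figure D1:**
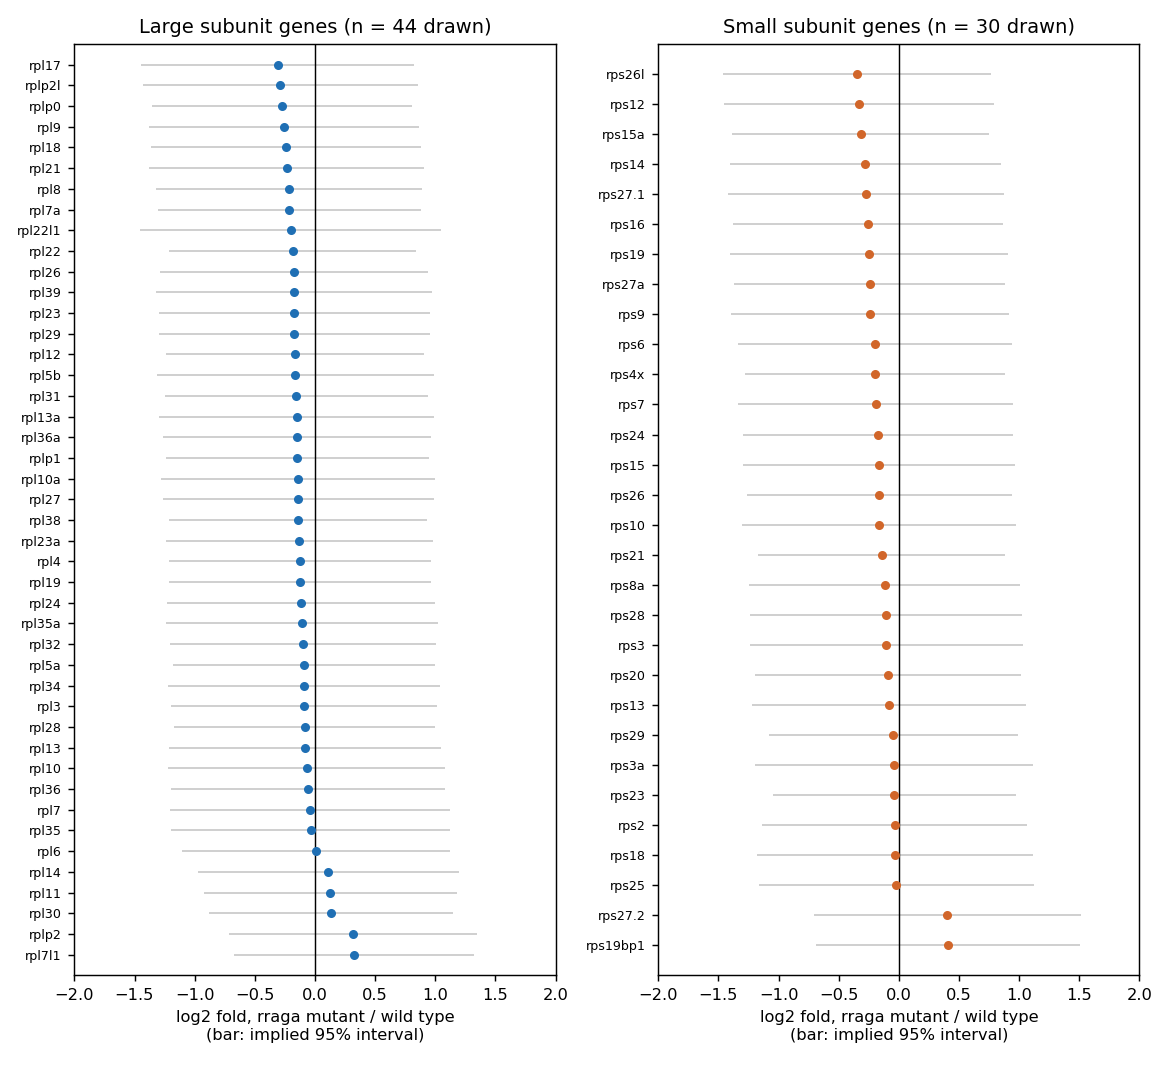
Log2 fold (rraga mutant over wild type, horizontal axis) of each large subunit gene (left) and small subunit gene (right), from the authors' deposited table; points are folds and bars the implied 95% interval. rps8b, at -3.78, is outside the axis and not drawn, and 4 further members are not drawn. Of the points shown, 66 of 74 lie left of 0, and every bar crosses 0.

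Apart from rps8b, the implied interval of every member included 0. The median implied error was 0.57 on the log2 scale, so that the 95% interval of a typical member reached more than 1 log2 unit either way. For rpl32, the large subunit member of highest level, the authors' deposited table gave a level of 1241, a fold of -0.10 on the log2 scale and p = 0.863, with an implied interval of -1.2 to 1.01. rps20, the small subunit member of highest level, had a level of 784, a log2 fold of -0.09 and p = 0.870 per the authors' deposited table, and an interval of -1.2 to 1.01. Both intervals cover a rise as well as a fall, so the shared lean of the members is a description of these merged records and carries no p.

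The large and small subunits differed by little. The 45 large subunit genes had a median log2 fold of -0.14 with 39 lower, and the 34 small subunit genes had a median of -0.16 with 32 lower. The difference between the medians, large minus small, was 0.02. It was -0.0087 when 6 ribosomal protein genes outside the name rule were added. The SD across members was 0.13 for the large subunit and 0.65 for the small, or 0.17 without rps8b. The mean of the small subunit was -0.23, against -0.13 without rps8b. Large subunit genes were the more tightly packed, with an interquartile range of 0.09 against 0.19 for small subunit genes and 0.60 for all genes, each at a level of 30 or more. No test was made between the subunits, since genes are not replicates.

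If the fold is read as the ratio of the genotype means, which the table does not state, the lower mean of each gene follows from its level. Summed in this way, large subunit genes came to 13099 in wild type and 11940 in the mutant, a difference of -8.85%. Small subunit genes came to 10297 and 9315, a difference of -9.54%. All genes together came to 541662 and 536178, which is -1.01%, but the difference depended on the genes summed. It was 9.84% for the other genes in the level range of the members. For all genes of level 300 or more it was -10.4%, where the members had -10.1%. A sum gives most weight to the largest values, and of those 295 genes 46.1% were lower, with a median log2 fold of 0.06. All genes of level 300 or more came to 301718 in wild type and 270476 in the mutant. The 27 digestive markers described below, of any level, came to 102400 and 66502. Within the sums over all genes, ribosomal protein genes made up 4.32% of the wild-type values and 3.96% of the mutant ones.

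Among large subunit genes, the acidic stalk, a flexible arm that recruits elongation factors to the ribosome, had genes near both ends of the range. The authors' deposited table gave log2 folds of -0.27 for rplp0, the base of the stalk, and -0.15 for rplp1. Of the genes of the third stalk protein, rplp2l was at -0.29 and rplp2 at 0.32 per the authors' deposited table. The proteins that form a particle with 5S ribosomal RNA, which in human cells also bind the p53 regulator MDM2, are encoded by rpl5a, rpl5b and rpl11. In the authors' deposited table they had log2 folds of -0.09, -0.16 and 0.13. rpl11 (ENSDARG00000043509, chromosome 19, 44184992 to 44193468, GRCz11) had a level of 41.3 per the authors' deposited table, the smallest of the large subunit.

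Of the large subunit genes, 39 of 45 were lower, with a median of -0.14. Those of the proteins around the exit of the peptide tunnel, where the new chain leaves the ribosome, were all lower. The 10 listed, rpl4, rpl17, rpl19, rpl22, rpl23a, rpl26, rpl31, rpl35, rpl38 and rpl39, had a median of -0.15, ran from -0.31 to -0.04, and none passed the threshold. The lowest was rpl17 (ENSDARG00000057556, chromosome 21, 18960867 to 19030881, GRCz11) at -0.31 per the authors' deposited table, with p = 0.595. Its annotated region overlaps 4 other rows, among them the neurofilament genes nefla and nefma, so reads may be shared. After rpl17 and the stalk genes rplp2l and rplp0 came rpl9 at -0.26, rpl18 and rpl21 at -0.24, rpl8 at -0.22 and rpl7a at -0.21 per the authors' deposited table.

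A further 20 large subunit genes lay between -0.2 and -0.1, rpl26, rpl23, rpl29, rpl12, rpl13a, rpl36a, rpl10a, rpl27, rpl24 and rpl35a among them. Another 10 lay between -0.1 and 0, including rpl32, rpl34, rpl3, rpl28, rpl13, rpl10, rpl36, rpl7 and rpl35. rpl3 and rpl10 encode proteins close to the peptidyl transferase centre, where peptide bonds form. The large subunit genes with a higher value were 6 in number. In the authors' deposited table rpl6 was at 0.01, rpl14 at 0.11 and rpl30 at 0.13, beside rpl11, rplp2 and rpl7l1. rpl7l1, with 0.33 at a level of 73.1 per the authors' deposited table, is known in human cells as a factor of large subunit assembly and not as a protein of the finished ribosome.

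Of the small subunit genes, 32 of 34 were lower, with a median of -0.16. Those listed for the head and for the side where messenger RNA enters were all lower. These 15 genes had a median of -0.11 and ran from -0.34 to -0.02, and none passed the threshold. The list left out faua and faub, the genes of ribosomal protein S30, at 0.18 and 0.44 per the authors' deposited table. That all were lower thus depends on the genes listed. The lowest of them, rps12, was at -0.34 with p = 0.558, its level being 470 per the authors' deposited table. rps19 and rps16 were at -0.25 and -0.26 per the authors' deposited table. By contrast rps2 and rps3, whose proteins line the entry channel, had -0.03 and -0.11, and rps23, next to the decoding centre, -0.04 per the authors' deposited table. rps25, at -0.02 per the authors' deposited table, was the least shifted of the small subunit genes on the lower side.

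Genes listed for the platform, where messenger RNA leaves, had a median of -0.27 over 5 genes, of which 4 were lower and none passed. The list held rps14 and both genes of the rps26 and rps27 pairs, so those pairs weigh on the median. It left out rps3a, at -0.04, and rpsa, at -0.12 per the authors' deposited table, and the median depends on the genes listed. rps26l was the lowest small subunit gene of level 30 or more, with -0.35 at a level of 303 and p = 0.539 per the authors' deposited table. rps14 had -0.28 and rps26 -0.16 per the authors' deposited table. rps15a, which was on none of the role lists, had -0.32 per the authors' deposited table.

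rps6, the protein of which is the classical target of the S6 kinases downstream of mTORC1, was at -0.20 (p = 0.729) with a level of 339 per the authors' deposited table. rps27a, which encodes a fusion of ubiquitin with a small subunit protein, had -0.24 (p = 0.670) per the authors' deposited table. Among the other small subunit genes of level 30 or more, rps9, rps4x, rps7, rps24 and rps21 lay between -0.24 and -0.14, rps8a was at -0.12 and rps13 and rps3a were at -0.08 and -0.04 per the authors' deposited table.

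On the higher side the small subunit had rps27.2 and rps19bp1. rps27.2 (ENSDARG00000055475, chromosome 16, 23873584 to 23885452, GRCz11) stood at 0.40 with p = 0.477 per the authors' deposited table, and its region overlaps rab13 on the opposite strand. rps19bp1, at 0.41 with p = 0.467 per the authors' deposited table, fits the name rule but encodes a nucleolar protein that binds RPS19 in human cells and is no ribosomal protein. With rps19bp1 and rpl7l1 set aside, 71 of 77 genes were lower.

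rps8b stood apart from every other member. The authors' deposited table gave it a level of 3.54, a log2 fold of -3.78, p = 0.0255 and an FDR-adjusted p of 0.653. Its implied error was 1.69 and its implied interval -7.09 to -0.46. No other member had a level under 41.3. Its paralog rps8a had a level of 260 and a log2 fold of -0.12 per the authors' deposited table.

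**Figure D2:**
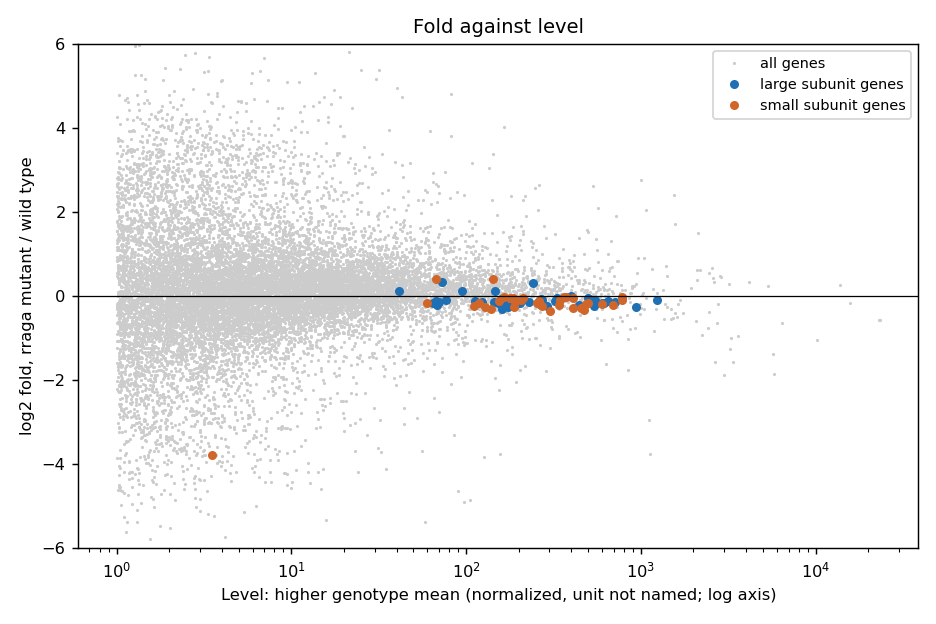
Log2 fold (rraga mutant over wild type) against level on a log axis, for genes of level 1 or more with folds within the axis, from the authors' deposited table. Grey points are all genes, blue points large subunit and orange points small subunit genes. Apart from rps8b at a level of 3.54, 70 of the 78 other members lie under 0 and 8 above it, all between -0.35 and 0.41.

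The share of lower values differed with level. Of the 29 members of level 300 or more, 28 were lower, with a median of -0.17, while the 295 genes of that level in the whole table had a median of 0.06 and 46.1% lower. At levels of 100 to 300, 36 of 39 were lower, and under 100 the count was 7 of 11, with the non-ribosomal rpl7l1 and rps19bp1 among the 4 higher ones. In the whole table the 1716 genes of level 30 to 100 had 33.7% lower and a median of 0.18. The whole table had no steady trend with level. Lower values made up 49.0% of all genes with a p and 35.3% of those of level 30 or more. The share was 38.1% at 100 or more and 46.1% at 300 or more. Spearman's rho between level and log2 fold was -0.18 across the 78 members of level 30 or more, a weak relation across genes that share the same records and are not independent.

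Some ribosomal proteins have a second, related gene in zebrafish, and the 6 such pairs among the members did not all lean the same way. Both genes were lower for rpl5a and rpl5b, for rpl22 and rpl22l1 (-0.18 and -0.20 per the authors' deposited table), and for rps26 and rps26l. In a further pair of cases the copies had opposite signs. rps27.1 (chromosome 19) had -0.27 at a level of 408 and rps27.2 (chromosome 16) had 0.40 at a level of 142 per the authors' deposited table. The difference of 0.68 had an implied interval of -0.92 to 2.27. Intervals of differences combine the implied errors of both genes as if these were independent. Genes of the same records may share error, so such an interval may misstate the uncertainty within a pair. For rplp2l (chromosome 7, level 470) and rplp2 (chromosome 6, level 243) per the authors' deposited table, the difference was 0.60 with an interval of -0.93 to 2.14. The related genes rpl7 and rpl7l1, which do not encode the same ribosomal protein, also had opposite signs and differed by 0.37, with an interval of -1.16 to 1.90. All 3 intervals include 0 under that assumption. For rps8a and rps8b the difference was -3.66 with an interval of -7.16 to -0.16, and it rests on the small level of rps8b. Reads of similar copies can be divided between them in ways the table does not record, so the split within a pair is uncertain.

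**Figure D3:**
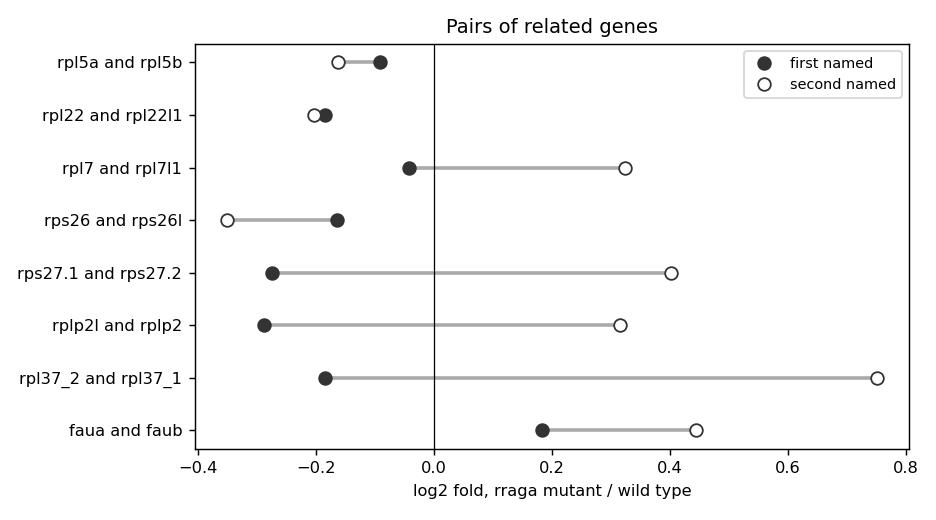
Log2 fold (rraga mutant over wild type) of pairs of related genes, rpl7 and rpl7l1 among them, from the authors' deposited table; the filled circle is the first and the open circle the second gene named, and no error is drawn. rps8a with rps8b is left out because rps8b lies at -3.78. In the pairs of rps27.1, rplp2l, rpl7 and rpl37_2 the 2 genes lie on opposite sides of 0.

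Some ribosomal protein rows carry names outside the rule and are no members. Among these, rpl37_2 had -0.18 at a level of 177 and rpl37_1 had 0.75 at a level of 18.1, with p = 0.256, per the authors' deposited table. faua and faub, which encode ribosomal protein S30 fused to a ubiquitin-like protein, were at 0.18 and 0.44 per the authors' deposited table. rpsa, whose protein sits on the small subunit and is also called the laminin receptor, had -0.12, and gnb2l1, which encodes the scaffold RACK1, had -0.03 per the authors' deposited table. The identifier ENSDARG00000009285 is named ube2e1 per the authors' deposited table and RPL15 in the reference list of names, and its log2 fold was -0.11. The members represent 71 of the 80 proteins of the vertebrate ribosome, counting RACK1, with 41 of 47 for the large and 30 of 33 for the small subunit.

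Genes mutated in Diamond-Blackfan anaemia, a human failure of red cell production caused by lack of single ribosomal proteins, leaned lower as did the rest. Of the 21 measured orthologs, rps19, rpl5a, rpl5b, rpl11 and rps26 among them, 19 were lower with a median of -0.16, and of the other 58 members 52 were lower with a median of -0.14. None of the 21 passed the threshold.

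Other genes of ribosome production and TOP messenger RNAs were examined from lists of names. Of 104 measured ribosome biogenesis factors, 34 (32.7%) were lower and 70 higher, with a median of 0.14. All genes of level 10 or more had a like lean, with 37.7% lower and a median of 0.15. At 30 or more, 4 of 31 biogenesis factors were lower with a median of 0.20, against 35.3% and 0.16 for all genes. None of the 104 passed the adjusted threshold or an unadjusted p under 0.05, where 0.221% and 9.66% of all genes did. The biogenesis factors of highest level were npm1a, a nucleolar chaperone, at 0.17 and nop10, of the pseudouridine-forming H/ACA particles, at 0.29 per the authors' deposited table. Other genes listed with TOP messenger RNAs were mostly elongation and initiation factors, but included gnb2l1, named above among the ribosomal protein rows. They had a median of 0.05 over 34 genes. Of these 15 were lower, 19 higher and none past the adjusted threshold. At a level of 30 or more their median was -0.03, with 11 of 20 lower. Among them the elongation factor gene eef2b had -0.04 and pabpc1a, for a poly(A)-binding protein, -0.04 per the authors' deposited table. eif3hb, of initiation factor eIF3, had 1.88 with p = 0.0261, or 0.655 after the FDR adjustment, per the authors' deposited table.

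Of 20 measured regulators of these messenger RNAs, 8 were lower and 12 higher and none passed the adjusted threshold. The gene of highest level, cnbpb, whose product binds TOP messenger RNAs, had 0.13 per the authors' deposited table. eif4ebp3l, of the 4E-BP family, repressors of the cap-binding protein that mTORC1 phosphorylates, had 1.2 at a level of 101 with p = 0.0172, or 0.605 after the FDR adjustment, per the authors' deposited table. eif4ebp1, eif4ebp2 and eif4ebp3 had 0.18, -0.03 and -0.46 per the authors' deposited table. larp1 and mtor had levels of only 1.27 and 2.79 per the authors' deposited table, with log2 folds of 0.06 and -0.34. The related larp1b had a level of 11.9 and a log2 fold of -0.40 per the authors' deposited table.

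**Figure D4:**
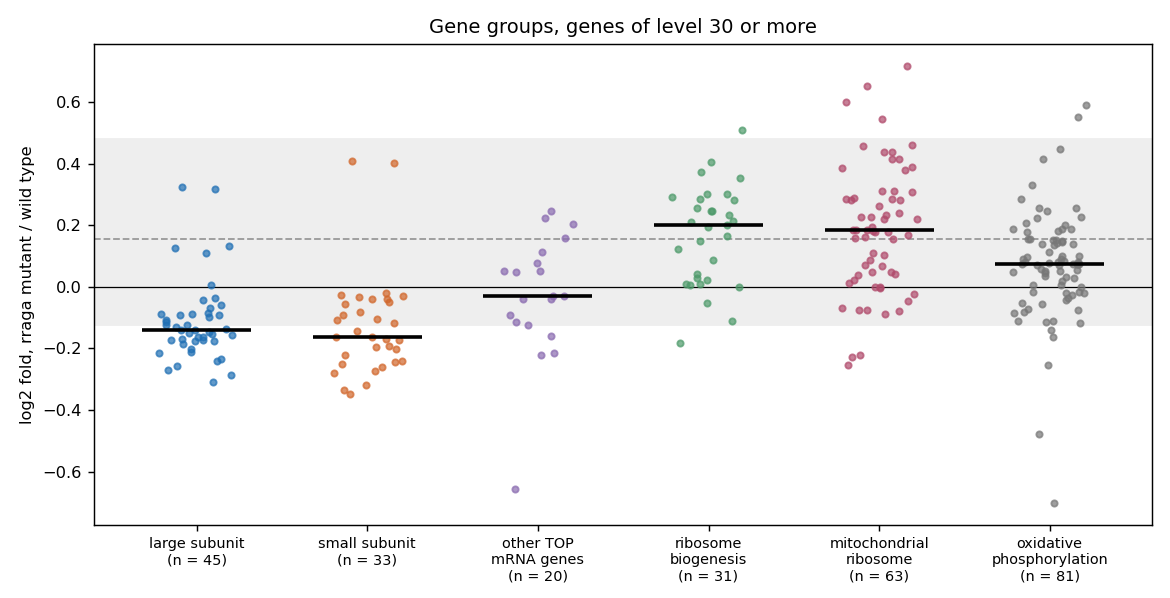
Log2 fold (rraga mutant over wild type) of single genes of level 30 or more in 6 gene groups; black bars are medians, the grey band spans the middle of all 2660 genes of that level from the lower to the upper quartile, and the dashed line is their median of 0.16. The medians are -0.14 and -0.16 for the ribosomal subunits, -0.03 for other TOP messenger RNA genes, 0.20 for biogenesis factors, 0.18 for the mitochondrial ribosome and 0.07 for oxidative phosphorylation.

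The other large complexes set beside the cytosolic ribosome leaned higher, as did genes of level 30 or more in the whole table. Of the 2660 genes of level 30 or more, 1721 were higher, and their median was 0.16. The mitochondrial ribosome, which translates the messages of the mitochondrial genome, had 51 of 63 genes of that level higher, with a median of 0.18. Nuclear genes of oxidative phosphorylation had 58 of 81 higher with a median of 0.07, below that of all genes. Over all levels none of the 73 and 92 measured genes of these groups passed the threshold. At levels of 30 or more the SD of the log2 fold was 0.15 for cytosolic ribosomal protein genes, 0.21 for mitochondrial ones and 0.18 for oxidative phosphorylation, against 0.83 for all genes. Because the records behind all groups are the same and no value per replicate is given, the difference between these groups was not tested.

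The authors' p-values of the members were gathered at high values. Apart from rps8b the smallest was 0.467. At levels of 30 or more, 97.4% of the members were above 0.5, where 56.3% of all genes were. The share was 84.1% for the mitochondrial ribosome and 93.8% for oxidative phosphorylation at such levels. The SD of 0.15 among members of level 30 or more was smaller than their median implied error of 0.57.

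**Figure D5:**
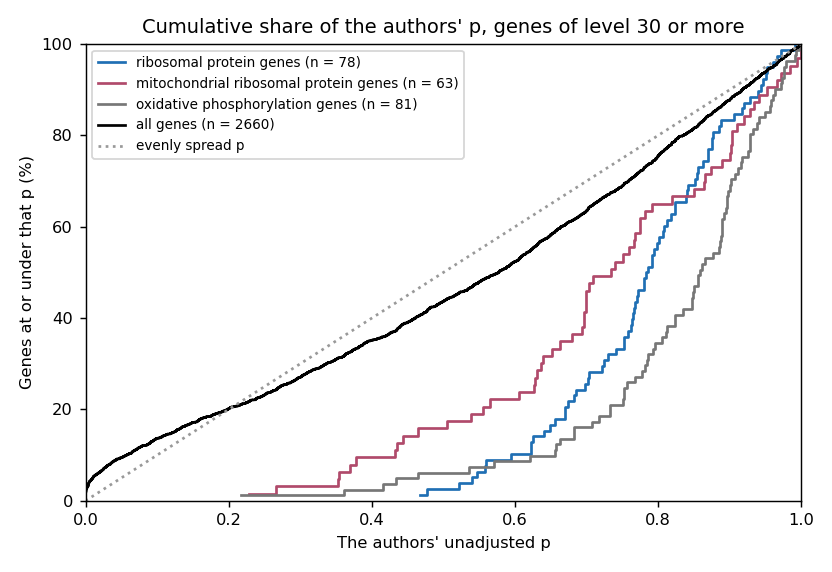
Cumulative share of genes (vertical axis, %) at or under each of the authors' unadjusted p-values (horizontal axis); the dotted line is an even spread. All curves are of genes of level 30 or more. That of ribosomal protein genes starts at 0.467 and lies below that of all genes over most of the axis.

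The sorted cells held oligodendrocyte transcripts as well as those of other tissues. The myelin gene mbpa had a level of 5321 and cldnk 1184 per the authors' deposited table. None of the 17 oligodendrocyte markers with a row was at 0, but the lowest had a level of 0.49. No digestive, neuronal, muscle or epidermis marker with a row was at 0 either. Of the 17 oligodendrocyte markers 11 were lower and 6 higher, with a median log2 fold of -0.69. mbpa was at 0.23 and gpr37b at 3.80 per the authors' deposited table, while mpz, at -2.96 there, fell with an FDR-adjusted p of 2.34e-04. The 27 digestive markers (exocrine pancreas, liver and gut) made up 16.3% of all levels added together, with 22 lower in the mutant and a median of -0.57. The 14 measured erythrocyte markers had a median of 1.51 with 11 higher, and hbaa1 and hbaa2 were listed at 0. The globin gene hbae1.3 rose by 2.65 on the log2 scale with an FDR-adjusted p of 0.0259 per the authors' deposited table. The median was -0.50 for 13 neuronal markers (7 lower), -0.15 for 15 of macrophages and microglia (8 lower), with c1qa listed at 0, -0.01 for 18 of muscle (9 lower) and 0.32 for 13 of epidermis (5 lower). Ribosomal protein genes are expressed in all of these cells. Summed with the fold read as the ratio of the means, as above, the digestive markers came to 18.9% of the wild-type and 12.4% of the mutant values, a difference of -35.1%. The difference was -34.4% for oligodendrocyte, 236% for erythrocyte, -26.9% for neuronal and -11.9% for macrophage markers. It was 14.0% for muscle and 62.0% for epidermis markers. Single genes dominate some sums. Of a summed level of 1770 for macrophage markers, apoc1 had 1413, with a log2 fold of -0.26 per the authors' deposited table. Of 1924 for neuronal markers, stmn1b had 1604, with -0.50 there. Of the 15 macrophage markers 7 were higher, among them all 3 with an unadjusted p from the authors under 0.05. The part of these markers' shifts in the values of the ribosomal protein genes was not tested. rraga itself had a log2 fold of 0.44 with p = 0.477 per the authors' deposited table, which does not check the genotype labels.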

How the data were processed

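RNA sequencing of sorted cells from 2 genotypes was used through 1 table of the authors' comparison. Reads were placed on GRCz11, per the submitters' processing notes; no source used here names the aligner, counter, normalization or test. Per the file headers, the authors deposited for each gene a maximum group mean (a normalized expression signal of unnamed unit), the log2 fold, a signed fold (a score below -1 or above 1) and the p-value, unadjusted, by FDR and by Bonferroni. The 8569 genes of level 0 have no fold or p. Depth is unknown, so no counting interval was made. Medians, the Benjamini-Hochberg adjustment over other gene sets and the implied error (absolute log2 fold over the normal deviate of the p) were computed with Python 3.11.15, pandas 2.3.3 and scipy 1.17.1. The adjustment and the implied error were tested on simulated data. For the implied error this checks the arithmetic only, because the simulated p came from a normal test, and the authors' test is not known. The members and lists were chosen with earlier results of these data known. Named genes are, per subunit, the 3 highest levels and the 3 lowest and highest folds at level 30 or more, low-level members, paralogs, members with p under 0.05 and the role lists; rpl37_1, rpl37_2, faub, ube2e1 and the further members named within fold ranges were added after their values were seen. Single values of some genes, 4 members among them, are not reported here, and the alternatives that add genes leave such genes out; the members count in every median and total.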

Additional observations from a re-analysis of the deposited data

How the results depend on the processing

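No paired analysis was possible because the table holds no value per replicate; a count model, another normalization and leaving out a replicate could not be run for the same reason. No member was called at the authors' FDR p under 0.01, by their Bonferroni p, or after adjustment over genes of level 1 or more or of level 10 or more, and at an unadjusted p under 0.05 the count was 1. The median over all members, -0.14, lay between -0.16 and -0.12 under the alternatives on members and summary. Relative to the median of 0.11 of genes of level 100 or more it was -0.26, with -0.25 for the large and -0.28 for the small subunit, because that shift is subtracted. The small difference between the subunits, 0.02, was 0.015 at level 100 or more, 0.12 with means (0.016 without rps8b) and 0.0027 with rpsa, faua and faub. With rpl37_1, rpl37_2 and gnb2l1 added as well it had the other sign, at -0.0087. In this setting the large subunit median stayed at -0.14, while the small subunit median was -0.13 in place of -0.16. This setting and the mean without rps8b were chosen after the data were seen.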

Other observations

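Members lie on 24 of the 25 chromosomes, and those with a higher value on 5 of them. Chromosome 19 holds 3 of the 8, rpl30, rpl11 and rpl14, beside the lower rplp1, rps27.1 and rps18, and its members had a median log2 fold of 0.04. All 133 genes of level 30 or more on that chromosome had a median of 0.24, against 0.16 in the whole table. Medians near it were also found where every member was lower, with 0.22 on chromosome 3 (7 members) and 0.23 on chromosome 14 (2 members). On chromosome 14, which carries rraga, rpl39 lies 19.2 Mb and rpl26 38.1 Mb from it, with log2 folds of -0.17 and -0.18 per the authors' deposited table. Neighbouring members could differ: rplp2 and rps26l lie 8.67 kb apart on chromosome 6 with no annotated gene between them, and had 0.32 and -0.35 per the authors' deposited table. rpl3 and rpl27, 21.6 kb apart on chromosome 3, had -0.09 and -0.14 per the authors' deposited table.

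Introns of ribosomal protein genes are known hosts of small nucleolar RNAs. The regions of 23 members hold 60 rows named as such RNAs, all 60 on the strand of the host gene. Of these rows 35 were listed at 0 and 1 had a level of 1 or more.

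The annotated regions of 11 members overlap another gene that is no small nucleolar RNA, and whether strand was used in counting is not stated. These include 3 of the 8 members with a higher value, rps27.2 with rab13, rps19bp1 with ap1m2 and rpl7l1 with ephx1. Of the 11, 8 were lower with a median of -0.17, and of the 68 members with no such gene 63 were lower with a median of -0.14.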
